A study of Mus musculus with 8 samples.

Results

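The genes of voltage-gated calcium channels, voltage-gated sodium channels and transient receptor potential (TRP) channels were compared between control islets and islets with β cell Notch activation (β-tetO-NICD). A gene was taken when its symbol starts with Cacna, Cacnb or Cacng, with Scn and a digit, or with Trpa, Trpc, Trpm, Trpv or Trpp and a digit. This gave 64 of the 32531 rows of the count table, of which 26 are Cacn, 14 are Scn and 24 are Trp rows. No row began with Trpp and a digit, and 2 of the Trp rows, Trpc4ap and Trpc5os, carry the letters of the rule without being channel genes.

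Islets of 4 control mice and 4 β-tetO-NICD mice were sequenced, 1 library per mouse. All mice carried RIP-Cre and Rosa26-rtTA, were kept on a mixed C57BL/6J, 129X1/SvJ and BALB/c background, and drank doxycycline (Dox) for 8 weeks. The β-tetO-NICD mice also carried tetO_NICD, which drives the intracellular domain of Notch1 under Dox, and controls lacked it. Cre is driven by a rat insulin promoter, so that the transgene is switched on in β cells while RNA came from whole islets, and the ages of these mice are not given in the sources used here. Library totals ran from 21701223 to 26413146 counts. Levels are given as CPM, counts scaled to a common normalized library size, group values are mean ± SD over 4 libraries, and libraries of β-tetO-NICD mice, here NICD libraries, carry the numbers 1, 2, 4 and 5 of the count table.

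In β cells, glucose metabolism closes ATP-sensitive potassium channels, the membrane depolarizes, and calcium enters through voltage-gated channels to trigger insulin release. Each calcium channel has a pore-forming α1 subunit (Cacna1), which sets its class (L, P/Q, N, R or T type), together with α2δ (Cacna2d) and β (Cacnb) subunits that govern its traffic and gating. Sodium channels, with a Scn pore subunit and small Scn β subunits, shape the spikes of islet cells, and TRP channels pass cations in response to calcium, lipids, oxidants or temperature.

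The transgene was read out first. Notch1 was at 56.9 ± 10.7 CPM in controls and 1029.9 ± 331 in β-tetO-NICD islets (log2 fold change 4.18, adjusted p = 0.000102 by the Benjamini-Hochberg method in edgeR's quasi-likelihood test, which gave each adjusted p here). The Notch targets Hes1 and Heyl rose by 2.61 and 3.56 on the log2 scale. Libraries also differed in ways that follow the groups only in part. The Y-linked gene Eif2s3y had 1300 counts in control 2, 1527 in control 4 and 1465 in NICD library 5, against at most 1 in the remaining 5, whereas the study's methods name males for gene expression and the labels give no sex. The relation of a gene's level to the length of its longest transcript also split the libraries, with a rank correlation across 14999 genes of 0.418, 0.468, -0.176 and 0.497 in controls 1 to 4 and of 0.447, -0.522, -0.360 and -0.514 in NICD libraries 1, 2, 4 and 5. It was positive in 3 of 4 controls and in 1 of 4 NICD libraries, so this trend goes in part with the groups. Genes within a library are not independent, and these values are descriptions.

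Cell type markers were present for each islet cell type, with no list gene at 0 in all libraries. The summed level of 8 β cell markers was 154799 to 195807 CPM in controls and 71608 to 171619 in β-tetO-NICD islets, and 2 of the 8, Slc2a2 and Ucn3, fell. The sum of 5 α cell markers was 11396 to 41250 against 53524 to 67199 CPM, without overlap, and Irx1 and Irx2 were among those that rose. The pair of δ cell markers summed to 2279 to 6251 against 4785 to 13763 CPM, and Hhex rose. The sum of 5 macrophage markers ran from 123 to 156 against 184 to 256 CPM, and that of 8 neural and Schwann cell markers from 105 to 152 against 74.3 to 95.5 CPM. In each list 1 gene passed, C1qa, which rose, and Th, which fell, and without it the sums overlapped (54.1 to 84.2 against 51.4 to 74.4 CPM, and 62.4 to 112 against 60.4 to 80.6 CPM). The lists of acinar (10 genes, 53985 to 107623 against 44990 to 150296 CPM), duct (5 genes, 66.8 to 127 against 108 to 223), endothelial (5 genes, 366 to 570 against 484 to 609) and mesenchymal cells (6 genes, 160 to 436 against 235 to 294) overlapped between the groups. In bulk islets, fewer cells of a type and less RNA per cell cannot be told apart, and the part of these shifts in the channel results was not tested.

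Of the 64 genes, 48 had at least 10 counts in at least 4 libraries and were tested. Among them 8 passed the threshold, an adjusted p under 0.05, which is 16.7% of those tested beside 6.76% of all 15082 tested genes. Cacna1g, Cacna2d3, Cacna2d4, Cacng2 and Scn3b rose (10.4% beside 4.19% of all genes), and Scn9a, Trpm2 and Trpm5 fell (6.25% beside 2.57%). In the 5 libraries without Eif2s3y counts, Scn3b and Trpm5 passed and the other 6 did not, where 0.809% of all genes passed. The shares depended on the test. DESeq2 called 20.8% of the 48 genes beside 18.2% of all genes, and limma-voom 18.8% beside 7.18%. The lowest count of any of these 8 genes in any library was 16. Groups did not overlap in 10 of the 48, or 20.8%, beside 16.1% of all genes. These were the 8 named and the cation channel genes Trpc7 and Trpm4, which were higher in each NICD library than in any control but did not pass the test. The median log2 fold change of the 48 genes was -0.21, beside 0.00071 over all tested genes. It was -0.040 once a length trend was removed by an offset, 0.12 with the sign of that trend as covariate and 0.058 in the 5 libraries without Eif2s3y counts, against -0.32 with an acinar score as covariate. With 1 library left out it ranged from -0.062 to -0.41, the lowest without NICD library 1.

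**Figure D1:**
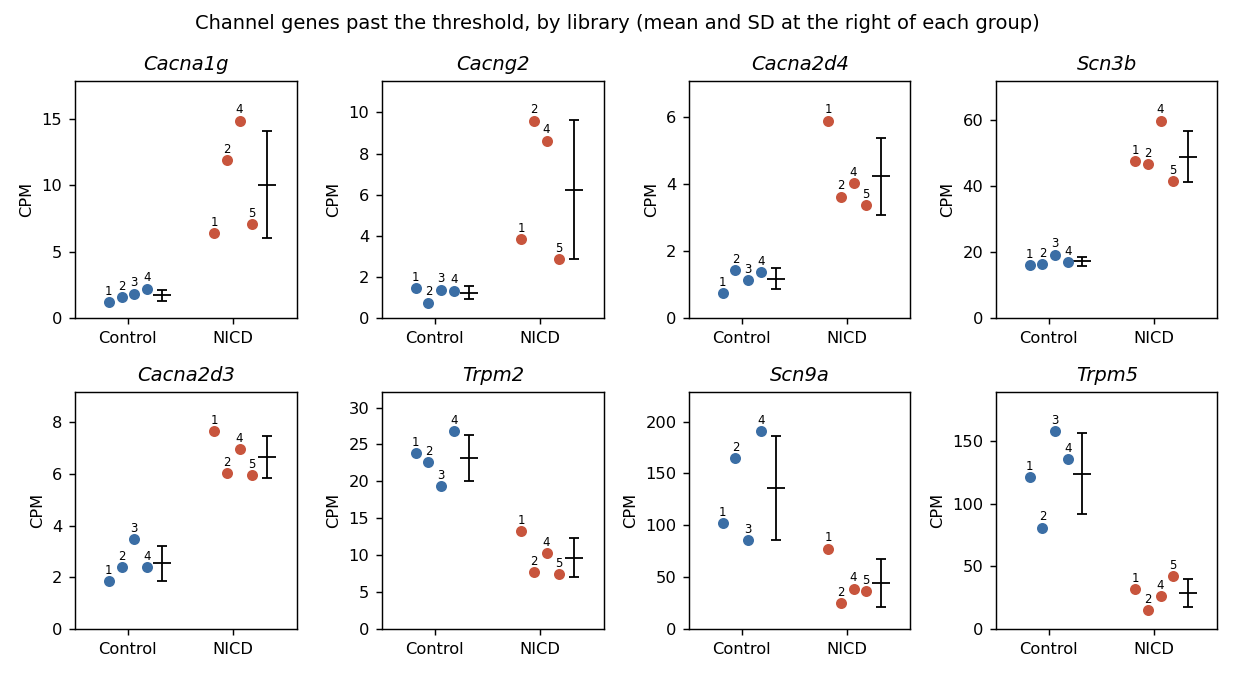
CPM of the 8 genes that passed the threshold in each library (points) with the mean and SD at the right of each group, for controls and β-tetO-NICD islets, 4 libraries each. In all 8 panels the groups do not overlap, and Scn3b lies at 16.0 to 19.2 CPM in controls against 41.4 to 59.8.

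Among the pore subunits of calcium channels, 1 gene of 9 tested passed (11.1%, beside 6.76% of all tested genes). Cacna1g (Cav3.1, ENSMUSG00000020866, GRCm38 chr11:94408391-94474198) encodes a T-type channel, which opens at low voltages. It was at 1.199, 1.56, 1.86 and 2.23 CPM in controls and 6.42, 11.9, 14.9 and 7.05 in NICD libraries 1, 2, 4 and 5. The lowest NICD library was well above the highest control, and libraries 2 and 4 were the highest. The means were 1.71 ± 0.439 and 10.1 ± 4.03 CPM, a 5.85-fold difference (log2 fold change 2.55, SE 0.33, adjusted p = 0.00284). The call held with any single library left out. The other T-type genes, Cacna1h (log2 fold change 0.01, adjusted p = 0.983) and Cacna1i (0.34, adjusted p = 0.601), did not pass.

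The L-type genes are the main route of calcium entry in mouse β cells. Cacna1d (Cav1.3) was at 138, 109, 71.3 and 142 CPM in controls and 86.4, 32.7, 46.3 and 36.2 CPM in NICD libraries. NICD libraries 2, 4 and 5 were below all controls, and library 1 was above control 3. Its log2 fold change was -1.19 (SE 0.33) with an adjusted p of 0.0598, just above the threshold. It passed in 2 of the 8 fits that left out 1 library, where adjusted p over all 8 ran from 0.00436 (without NICD library 1, where 33.2% of all genes passed) to 0.168 (without NICD library 2). It passed in 6 of 13 other settings, where adjusted p over all 13 ran from 0.00595 in DESeq2 to 0.466 in the 5 libraries without Eif2s3y counts. Cacna1c (Cav1.2) was at 56.8, 54.4, 27.6 and 64.2 CPM in controls and 56.0, 19.7, 26.1 and 23.4 CPM in β-tetO-NICD islets, with control 3 and NICD library 1 each near the other group (log2 fold change -0.70, adjusted p = 0.203). Cacna1f was at 0.524 ± 0.112 and 0.584 ± 0.435 CPM, with a log2 fold change of 0.14. Cacna1s had 0, 0, 1 and 0 counts in controls and 6, 2, 5 and 4 in NICD libraries, below the filter.

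Genes of the remaining classes did not pass. Cacna1a, the P/Q-type pore, was at 75.1 ± 21.3 CPM in controls and 44.5 ± 27.0 in β-tetO-NICD islets (log2 fold change -0.76, adjusted p = 0.211). For the N-type Cacna1b the log2 fold change was -0.66 (adjusted p = 0.260). Cacna1e, the R-type pore, was low at 1.92 ± 1.45 and 1.17 ± 0.206 CPM, and 1 control, number 4, held the highest value of 4.02.

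To set classes beside each other, levels were divided by the length of the longest transcript. On this scale of CPM per kb, L-type genes held 55.0, 54.3, 53.7 and 59.3% of the summed Cacna1 level in controls and 47.5, 47.4, 39.7 and 49.4% in NICD libraries. T-type genes held 4.46, 4.24, 8.28 and 5.15% against 11.03, 20.2, 17.9 and 16.0%. Neither class overlapped between the groups, and the mean share differed, as β-tetO-NICD minus control, by -9.60 percentage points for L type and by 10.8 for T type. The P/Q-type share was 33.5 ± 3.98% and 31.8 ± 4.94%, the N-type share 4.996 ± 1.16% and 5.39 ± 0.892%, and the summed level 28.4 ± 7.47 and 16.9 ± 8.22 CPM per kb. With the median in place of the longest transcript, P/Q-type genes were the largest class (60.2% of the sum in controls) and the L-type shares overlapped at 23.9 to 29.7% against 17.0 to 24.1%. The T-type shares still did not overlap, at 7.86 to 15.4% against 17.9 to 20.1%. These shares are descriptions without a test.

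**Figure D2:**
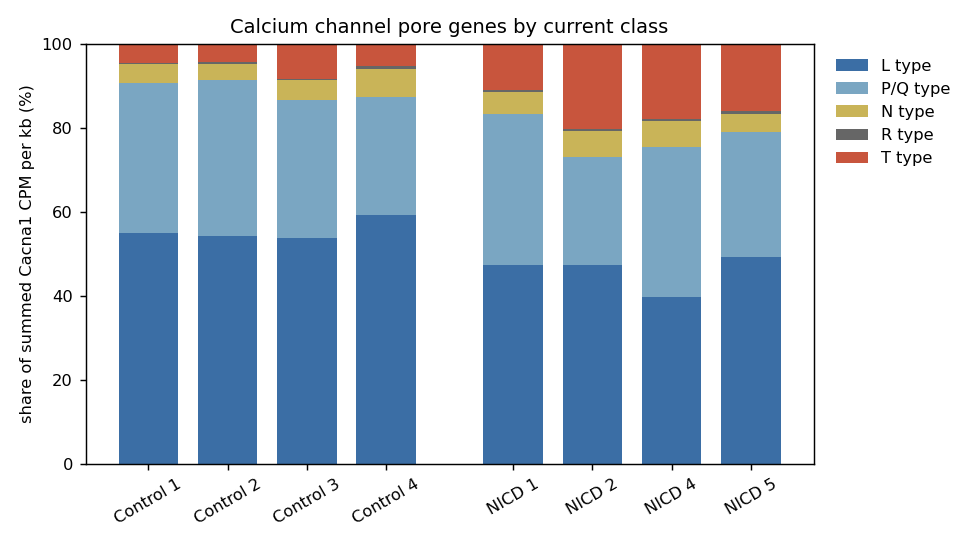
Share of the summed Cacna1 level (CPM per kb of the longest transcript, in percent) held by each calcium channel class in each of the 8 libraries. T-type genes hold 4.24 to 8.28% in controls and 11.03 to 20.2% in β-tetO-NICD islets.

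The α2δ genes showed a rise of low members beside a high member that did not pass. Cacna2d3 (chr14:28904943-29721864) was at 1.84, 2.41, 3.48 and 2.39 CPM in controls and 7.65, 6.03, 6.97 and 5.94 in NICD libraries, 2.62-fold higher (log2 fold change 1.39, SE 0.24, adjusted p = 0.0101). Cacna2d4 (chr6:119236526-119352407) was at 0.738, 1.44, 1.15 and 1.38 CPM in controls and 5.89, 3.62, 4.02 and 3.38 in NICD libraries, 3.58-fold higher (log2 fold change 1.84, SE 0.30, adjusted p = 0.00779). NICD library 1 was the highest for both genes, control 3 was the control nearest to the NICD libraries for Cacna2d3, and the groups did not overlap for either gene. Cacna2d1, the most abundant of the family, was at 132, 140, 101 and 136 CPM in controls and 120, 49.1, 50.002 and 63.8 in NICD libraries. Library 1 was within the control range and the other 3 were below it (log2 fold change -0.85, SE 0.29, adjusted p = 0.0921). It passed in 1 of the 8 fits that left out 1 library, without NICD library 1 (adjusted p = 0.00276, with 33.2% of all genes called), and adjusted p was as high as 0.233 in the others. It also passed in 2 of 13 other settings, DESeq2 (adjusted p = 0.0300) and the acinar score covariate (adjusted p = 0.0286). Its share of the summed α2δ level per kb was 86.5 to 90.9% in controls and 62.2 to 75.9% in β-tetO-NICD islets, and that of Cacna2d3 was 3.69% and 14.4% on average. Cacna2d2 had a log2 fold change of 0.04.

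None of the 4 β subunit genes, which bring the pore to the membrane, passed edgeR's test, DESeq2 or limma-voom, and 0 had an unadjusted p under 0.05. Cacnb3, the most abundant, was at 77.7 ± 13.8 and 86.3 ± 14.9 CPM (log2 fold change 0.15, SE 0.18, adjusted p = 0.576). Cacnb2 was at 30.7 ± 4.49 and 22.5 ± 7.40 CPM (log2 fold change -0.45, SE 0.23, adjusted p = 0.206). Cacnb1 and Cacnb4 had log2 fold changes of 0.20 and 0.03.

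Of the γ subunit genes, 4 of 8 were tested and all 4 log2 fold changes were positive, under each scaling and with the length offset too. Cacng2 (stargazin, chr15:77991748-78120028), which is best known for guiding AMPA-type glutamate receptors, was at 1.48, 0.760, 1.38 and 1.34 CPM in controls and 3.85, 9.61, 8.63 and 2.87 in NICD libraries. All of these libraries were above the controls, but they spread widely, with 2 and 4 high and 1 and 5 low. It was 5.03-fold higher (log2 fold change 2.33, SE 0.43, adjusted p = 0.0139). The call was lost with the sign of the length trend as covariate (adjusted p = 0.0521) and in the 5 libraries without Eif2s3y counts (adjusted p = 0.0878). Cacng4 and Cacng7, of the same group of AMPA receptor partners, had log2 fold changes of 0.72 (adjusted p = 0.179) and 0.39 (adjusted p = 0.388). Cacng3 had 0.51 (adjusted p = 0.286).

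**Figure D3:**
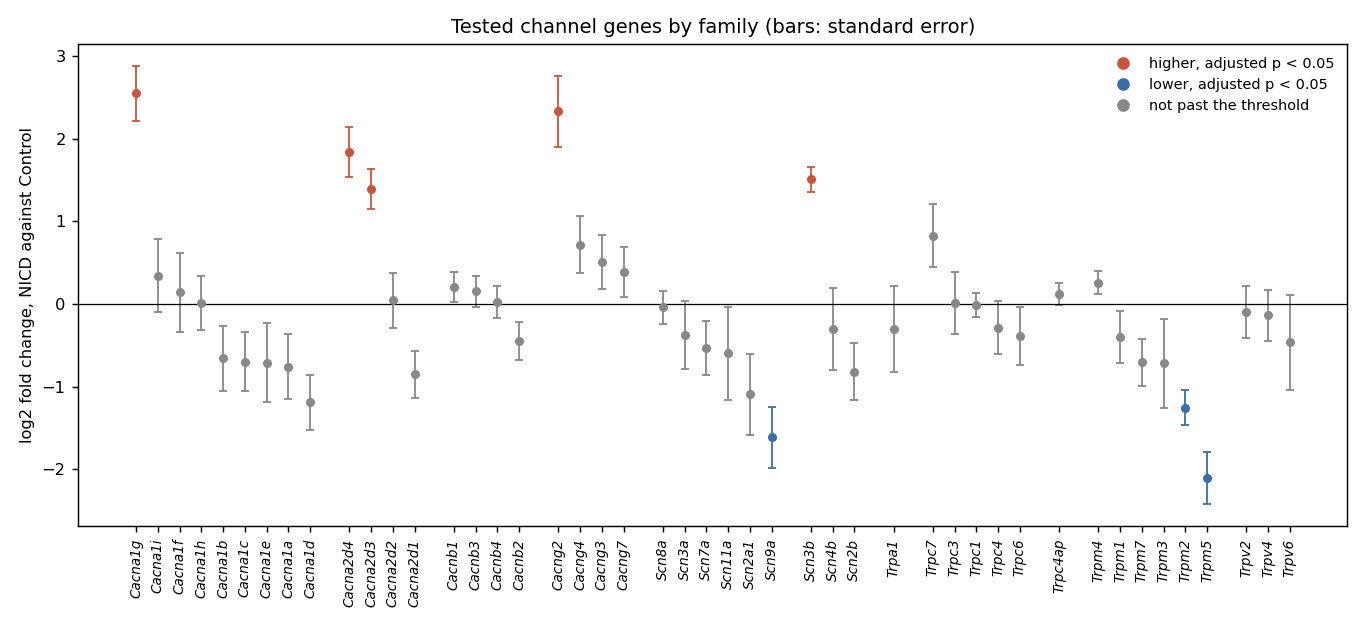
Log2 fold change (β-tetO-NICD over control) of 46 tested genes by family (points, with bars for the standard error), with genes past the threshold in colour. All 4 Cacng values lie above 0, and the Cacnb values lie between -0.45 and 0.20.

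For sodium channel pores, all 7 tested genes had a negative log2 fold change, from -1.61 to -0.04, and 1 passed (14.3%, beside 6.76% of all tested genes). Their median longest transcript was 8935 bases, and of all tested genes over 7 kb, 82.6% had a negative log2 fold change. Of the 7, 6 were negative under upper-quartile scaling, 5 with the length offset, and 4 with the sign of the length trend as covariate or in the 5 libraries without Eif2s3y counts. Scn9a (Nav1.7, chr2:66480080-66634962), the pore gene with the highest mean CPM in these islets, was at 102, 165, 85.7 and 191 CPM in controls and 77.6, 24.8, 38.8 and 36.2 in NICD libraries. Controls 2 and 4 were high, and NICD library 1 came close to the lowest control. The means were 136 ± 50.03 and 44.3 ± 23.0 CPM, 3.06-fold lower (log2 fold change -1.61, SE 0.37, adjusted p = 0.0342). This call held in 2 of 8 fits that left out 1 library, those without control 3 and without NICD library 1, and the adjusted p rose to as much as 0.0981 in the others. It was lost with Eif2s3y as covariate (adjusted p = 0.081) and in the 5 libraries without Eif2s3y counts (adjusted p = 0.422). The high controls 2 and 4 have such counts, and so does NICD library 5, which was not high at 36.2 CPM. The part of this difference between libraries in the Scn9a result was not tested. Scn9a held 60.9 to 67.2% of the summed pore level per kb in controls and 38.3 to 47.8% in β-tetO-NICD islets. This share uses the longest transcript, 9840 bases for Scn9a and 11436 for Scn8a. The median lengths are 7497 and 987.5 bases, and the share was not computed with them, so the ranking may depend on this choice.

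The related pore genes on the same chromosome did not pass. Scn3a (Nav1.3) was at 21.3 ± 8.44 and 16.5 ± 9.81 CPM (log2 fold change -0.37, adjusted p = 0.542), and the log2 fold change was -1.09 for Scn2a1 (adjusted p = 0.159) and -0.53 for Scn7a (adjusted p = 0.268). These genes are close in sequence, and how reads that fit several of them were shared out is set by the pseudoalignment. Scn8a (Nav1.6) was at 21.1 ± 4.84 and 20.6 ± 3.18 CPM (log2 fold change -0.04, SE 0.20).

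Scn3b (chr9:40269217-40291618) was the member with the smallest adjusted p. It encodes the β3 subunit, which modulates the gating of the pore. Its level was 16.0, 16.4, 19.2 and 17.0 CPM in controls and 47.6, 46.7, 59.8 and 41.4 in NICD libraries. The controls were nearly alike, and the lowest NICD library was above the highest control by more than the spread of either group. It was 2.85-fold higher (log2 fold change 1.51, SE 0.15, adjusted p = 0.000575), and passed in all 8 fits without 1 library and under all 13 other analysis settings. Scn3b held 28.9 to 50.5% of the summed β subunit level per kb in controls and 54.3 to 66.4% in β-tetO-NICD islets. Scn2b and Scn4b had log2 fold changes of -0.82 (adjusted p = 0.141) and -0.30 (adjusted p = 0.691).

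In the Trpm family 2 genes of 6 tested fell (33.3%, beside 2.57% of all tested genes). Trpm5 (chr7:143069153-143094642), a calcium-activated channel for monovalent cations known from taste cells and β cells, was at 121, 81.1, 158 and 136 CPM in controls and 31.98, 15.1, 26.3 and 42.2 in NICD libraries. The highest NICD library was far below the lowest control. It was 4.30-fold lower (log2 fold change -2.10, SE 0.32, adjusted p = 0.00524), and passed in every fit without 1 library and under all 13 other analysis settings. Exons of Trpm5 overlap those of Tssc4 on the opposite strand. Tssc4 was at 94.0 ± 8.78 and 82.3 ± 18.8 CPM (log2 fold change -0.19, adjusted p = 0.474), and whether the counting used strand is not given in the sources used here.

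Promoter sequence was taken from RefSeq (GRCm38.p6) as the 250 bases before and 50 bases after each start, on the gene's strand. Windows were found for 50 of the 64 genes and for 5 of the 8 that passed. They were searched on both strands for GTGGGAA, the core bound by the Notch effector RBPJ, and for CACNAG and CACGNG, the N-box and E-box forms bound by Hes and Hey repressors. GTGGGAA was in the window of 1 of the 50 genes (2.0%) beside 7.25% of 27025 genes. CACNAG was in 18 (36.0%) beside 46.1%, and CACGNG in 18 (36.0%) beside 30.3%. Of the 5 genes that passed, Cacna2d3, Cacng2, Scn9a and Trpm2 held none of the 3, and Trpm5 held CACNAG and CACGNG in overlapping letters after its start. Below are the 250 bases before the start of Trpm5, the gene with the largest fall, at chr7:143094643-143094892 on the minus strand, and those of Cacnb3, which did not pass the test and holds the only GTGGGAA (in capitals), at chr15:98632078-98632327 on the plus strand. A match is a description and not a binding site, and a window without one says nothing of the factor.
Trpm5: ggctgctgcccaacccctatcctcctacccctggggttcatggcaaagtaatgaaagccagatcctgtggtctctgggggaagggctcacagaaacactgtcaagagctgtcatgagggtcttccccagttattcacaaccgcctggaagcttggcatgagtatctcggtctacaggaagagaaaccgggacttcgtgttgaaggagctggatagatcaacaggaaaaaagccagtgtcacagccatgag
Cacnb3: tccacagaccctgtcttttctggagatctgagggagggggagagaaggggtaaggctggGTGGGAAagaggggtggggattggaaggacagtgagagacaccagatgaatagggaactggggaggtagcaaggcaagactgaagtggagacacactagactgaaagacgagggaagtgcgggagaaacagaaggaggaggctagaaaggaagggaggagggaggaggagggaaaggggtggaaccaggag

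Trpm2 (chr10:77907722-77970563), a calcium-permeable channel gated by ADP-ribose and oxidants, was at 23.8, 22.6, 19.3 and 26.8 CPM in controls and 13.3, 7.73, 10.3 and 7.46 in NICD libraries. Each NICD library was below each control, library 1 being nearest to them. It was 2.39-fold lower (log2 fold change -1.26, SE 0.21, adjusted p = 0.00876). Trpm4, the closest relative of Trpm5 and likewise activated by calcium, was at 17.6, 15.1, 18.4 and 18.4 CPM in controls and 21.4, 23.1, 19.8 and 18.8 in NICD libraries. The groups did not overlap, but by a small margin (log2 fold change 0.26, SE 0.14, adjusted p = 0.216). Trpm5 held 65.3 ± 8.04% of the summed Trpm level per kb in controls and 37.8 ± 11.7% in β-tetO-NICD islets, and Trpm4 8.93 ± 0.717% and 27.5 ± 7.85%. The summed level itself was 45.5 ± 7.30 and 18.2 ± 3.79 CPM per kb, so a larger share is not a like rise in level. These shares use the longest transcript and were not computed with the median length, which is 2772.5 bases for Trpm5 and 1123 for Trpm7.

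Other Trpm genes did not pass. Trpm7, a channel fused to a kinase and linked to magnesium uptake, was at 48.8 ± 10.9 and 29.9 ± 13.0 CPM (log2 fold change -0.70, adjusted p = 0.135). Trpm3, the steroid-activated and heat-activated channel, was at 20.1, 14.5, 4.55 and 14.9 CPM in controls and 16.9, 4.63, 7.84 and 3.48 in NICD libraries, with control 3 and NICD library 1 again nearest to the other group (adjusted p = 0.363). For Trpm1 the log2 fold change was -0.40 (adjusted p = 0.391).

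No Trpc, Trpv or Trpa gene passed in edgeR, DESeq2 or limma-voom, and 0 had an unadjusted p under 0.05. Trpc1, the most abundant Trpc channel gene, was at 24.5 ± 2.60 and 24.4 ± 3.04 CPM (log2 fold change -0.01, SE 0.15). Trpc7 was at 0.784, 0.338, 1.11 and 1.18 CPM in controls and 1.47, 1.35, 1.83 and 1.41 in NICD libraries (log2 fold change 0.83, adjusted p = 0.165). Trpc4 had a log2 fold change of -0.28, Trpa1, the irritant receptor, of -0.30, and Trpv2, Trpv4 and Trpv6 of -0.09, -0.13 and -0.46. All 5 were below 5 CPM in every library. Trpv1, the capsaicin receptor, had at most 3 counts in any library. Trpc4ap, which is no channel, was at 118 ± 5.33 and 128 ± 13.7 CPM.

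The 16 genes left out of the test had at most 51 counts in any library, the value of Scn1a in control 4. Of these, 5 never exceeded 3 counts and Scn10a had 0 in all 8 libraries. A count of 3 equals 0.0996 to 0.151 CPM in these libraries, which is the limit that 0 counts allow, for counting error only.

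Fold changes were also read against transcript length. Of the tested genes, 19 had a longest transcript over 7 kb. Their median log2 fold change was -0.70 with 15 of 19 negative and 3 called (1 higher, Cacna1g, and 2 lower), beside -0.50 over all 1370 tested genes of that length, of which 82.6% were negative, 20 rose and 59 fell. The 29 shorter genes had a median of 0.043, as did all 13629 shorter genes. The median deviation of the long channel genes from their own 8-library mean, on the log2 scale, was 0.495, 0.599, -0.275 and 0.719 in controls 1 to 4 and 0.398, -0.843, -0.197 and -0.805 in NICD libraries 1, 2, 4 and 5. This is the same split of libraries as in the correlation with length. When each library's trend with length was removed by an offset, the median of the 19 became -0.13 with 12 negative, all 5 rises remained called, and Cacna1d joined the 3 falls (log2 fold change -0.69, adjusted p = 0.0140). Under the offset Cacna1g was at 3.10, Cacna1c at -0.046 and Trpm2 at -0.86.

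**Figure D4:**
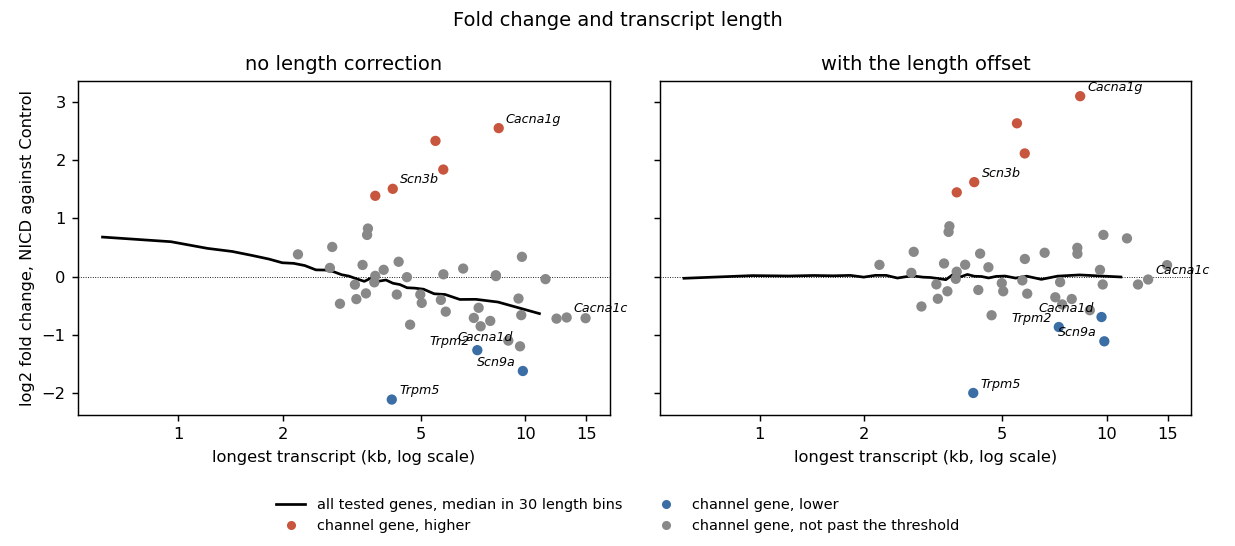
Log2 fold change (β-tetO-NICD over control) of tested channel genes (points) against the length of the longest transcript (kb, log scale), without correction (left) and with the length offset (right), with the median of all tested genes in bins of length as a line. The line falls with length on the left and lies near 0 on the right, and Cacna1g lies at 2.55 and 3.10.

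Other genes that handle calcium or carry cations were read from the same fit. Of 16 tested genes of calcium stores and release, 3 fell (18.8%, beside 2.57% of all genes) and none rose. Atp2a2 and Atp2a3, the pumps that load the endoplasmic reticulum, went from 907 ± 198 to 375 ± 135 CPM (log2 fold change -1.27, adjusted p = 0.0259) and from 805 ± 128 to 429 ± 74.9 CPM (log2 fold change -0.91, adjusted p = 0.0248). Atp2c1, the Golgi pump, went from 173 ± 14.6 to 95.4 ± 15.8 CPM (log2 fold change -0.86, adjusted p = 0.0131). None of the 14 tested genes of extrusion and mitochondrial uptake passed in edgeR (1 at an unadjusted p under 0.05, 1 called by DESeq2 and 0 by limma-voom). None of the 22 channel regulators passed in edgeR (4 at an unadjusted p under 0.05, 3 called by DESeq2 and 0 by limma-voom). Of 18 related cation channels, 22.2% passed, beside 6.76% of all tested genes. In this list 1 rose, Asic2 (log2 fold change 1.04, adjusted p = 0.0230), and 3 fell, Mcoln3 (-2.14, adjusted p = 0.00768) and Asic1 (-0.83, adjusted p = 0.00874) among them. The medians of the 4 lists were -0.28, -0.00070, 0.050 and -0.54. In all, 7 of these 70 genes passed (10%), beside 6.76% of all tested genes.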

How the data were processed

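RNA was measured in pancreatic islets, with 4 control and 4 β-tetO-NICD mice. The authors made stranded mRNA libraries and used kallisto to pseudoalign the reads to GRCm38 transcripts, and deposited whole-number counts per gene that were not normalized. Versions and the strand setting of the counting are not given in the sources used here. A deposited table of the authors' own comparison (log2 fold changes, mean expression, p-values, adjusted p-values and their statistics) was not used. Columns were assigned by name, and β-tetO-NICD columns 4 and 5 were assigned to the group alone, since its mice are labelled 1 to 4. No 2 libraries of the same group agreed within sampling noise (chi-square of at least 31.5 per gene). Labels and methods give 1 mouse per library, so p-values measure the spread between these mice.

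The fit used edgeR 4.0.16 in R 4.3.3 (TMM, a minimum of 10 counts in 4 or more libraries, glmQLFit and glmQLFTest without covariates, Benjamini-Hochberg adjustment over 15082 genes, threshold 0.05), after the procedure was tested on simulated data. DESeq2 1.42.0 and limma 3.58.1 (voom), other scalings and filters, length, Eif2s3y and acinar terms, a replicate block and fits without each library were alternatives. Coordinates and lengths are from GENCODE for GRCm38, and promoters from RefSeq. Named genes were all members past the threshold, the 3 of each family with the highest mean CPM, islet channel genes from a set list and called genes of the partner and marker lists, beside others named for completeness. Members and lists were chosen with earlier results of these data known. The pan-endocrine list (6 genes) summed to 17047 to 22220 CPM in controls and 16688 to 27483 in β-tetO-NICD islets, and Ppy, the PP cell marker, to 3740 to 10678 and 1929 to 6348. What limits precision was not tested, and levels near 3 counts carry large counting error. Results for some genes are not reported here, and they are left out of the plots of fold changes, but counts by family include them.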

Additional observations from a re-analysis of the deposited data

Results flagged for a closer look

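Each group of 4 libraries was searched for a value that stands far from the other 3, measured as its gap to the nearest value over the whole range, against Dixon's critical value for 4 values. Of 78 groups, 2 passed it, where chance gives about 1 in 20 groups, or about 3.9. For Cacna2d2 in controls the ratio was 0.839, since control 4 was at 11.2 CPM and the others at 5.78 to 6.64. For Trpv6 in β-tetO-NICD islets it was 0.908, since library 1 was at 1.47 CPM and the others at 0.332 to 0.437.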

How the results depend on the processing

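Members past the threshold numbered 8 and ranged from 7 to 14 with 1 library left out, those that rose stayed at 5, and those that fell ranged from 2 to 9. The 14 came without NICD library 1, which added Cacna1a, Cacna1c, Cacna1d, Cacna2d1, Cacnb2 and Trpm7, all lower, or 29.2% of 48 members where 33.2% of all genes passed. Falls numbered 5 with DESeq2, 5 with an acinar score as covariate and 5 with the length offset without NICD library 1, a setting chosen after seeing the data, in which 6 members rose, Scn8a among them (0.81, adjusted p = 0.0124 in edgeR). In the 5 libraries without Eif2s3y counts (2 control, 3 NICD), 2 members passed, 1 that rose (Scn3b) and 1 that fell (Trpm5). Cacna1g, Cacna2d3, Cacna2d4 and Trpm2 failed in that fit alone, Cacng2 there and with the sign of the length trend as covariate (adjusted p = 0.0521 in edgeR), and Scn9a there, with Eif2s3y as covariate and in 6 of 8 fits without 1 library. Over all genes, the 1020 calls became 2739 with DESeq2, 1577 with the length offset, 608 with the length sign, 122 in the 5 libraries and 3056 with the offset without NICD library 1, and 319 to 4954 with 1 library left out. The 7 partner genes called became 12, 11, 0 (5 libraries, edgeR, 12 at an unadjusted p under 0.05), and 12 with DESeq2, the offset, the 5 libraries and the offset without NICD library 1, and 3 to 25 with 1 library left out. The L-type share differed by -4.64 percentage points with the median transcript length. The cause of these shifts was not tested. No scaling moved the median of all genes by over 0.1 on the log2 scale.

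The replicate block could use only numbers 1 and 2, since NICD columns 4 and 5 have no mouse number. Deviations of same-numbered libraries correlated at 0.276 and -0.0901, so numbers were not taken as pairs. The block gave 595 calls over all genes, 9 members (5 that rose, 4 that fell) and 4 partner genes.

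For 34 named members, 663 of 745 values kept direction and side of the threshold, 14 lost the call, 17 gained it and 51 changed sign. All 51 were of genes not called with all libraries and no length term, and are given as log2 fold changes. Under the length offset these were Cacna1e 0.20, Scn3a 0.12, Scn8a 0.66 and Trpc1 0.16, and with the offset without NICD library 1 Cacna1e 0.40, Scn8a 0.81, Trpc1 0.16 and Trpv4 0.036. With the length sign they were Scn3a 0.15, Scn8a 0.19, Trpc1 0.12, Trpc4 0.076, Trpm3 0.13 and Trpv2 0.11. In the 5 libraries they were Cacna1e 0.30, Scn3a 0.22, Scn8a 0.17, Trpc1 0.16 and Trpv2 0.56. With Eif2s3y as covariate they were Cacna1h -0.045, Scn8a 0.081, Trpc1 0.0050 and Trpv2 0.029. With the acinar score they were Cacna1h -0.18, Cacna2d2 -0.018 and Trpv2 0.014, with voom Cacna1h -0.11, with upper-quartile scaling Scn8a 0.038 and Trpc1 0.069, with 10 counts required in each library Trpc1 0.022, and with the block Trpc1 0.14, Trpv2 0.091 and Trpv6 0.29. With 1 library left out, Cacna1h ranged from -0.38 to 0.23, Cacna2d2 from -0.24 to 0.31, Scn8a from -0.17 to 0.085, Trpc1 from -0.082 to 0.067, Trpv2 from -0.24 to 0.14 and Trpv4 from -0.25 to 0.032. Levels near the floor of 3 counts are limited by depth.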
